A study of Mus musculus with 12 samples.

Results

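Of 14236 circRNA probes on the array, 8844 were well above background on all 12 arrays, and 112 of these were selected on their measured group means as circRNAs that fell only at 24 h. Their mean log2 intensity at 24 h was at least 2 units (4-fold) below the sham mean, while their means at 3 h and at 5 min stayed less than 1 unit below it. The differences from sham at the 3 time points thus chose the circRNAs and are given as a description. Counts of calls on them stand beside the share of all detected circRNAs, and nothing is read from those counts. The 112 lay among 281 detected circRNAs that were lower by 2 units or more at 24 h. Of the others, 83 were left out because they were already 1 unit or more below sham at 3 h, 24 because of 5 min and 62 because of both. A name and a place in the genome could be given to 111 of the 112, through the supplementary list of the study.

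RNA came from whole blood of male Balb/c mice, labelled as 8 weeks old (the methods give an older age), with 3 biological replicates in each of 4 groups on one-colour arrays. MCAO mice had the middle cerebral artery occluded with a silicon-coated filament under isoflurane for 5 min, 3 h or 24 h, and SHAM mice had the same surgery with occlusion for 0 min. Linear RNA was removed with RNase R before Cy3 labeling. Since the blood was taken whole, fewer cells of a type and less RNA per cell cannot be told apart.

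A circRNA is a closed loop formed when a downstream splice site is joined back to an upstream one, so that it has no free ends and resists exonucleases. Most are made of exons of protein-coding host genes. In blood, erythroid cells and platelets are known as rich sources of circRNAs.

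By the scan date in their headers the arrays formed 2 sets, here called slides, although no slide identifier was read. The 24-h arrays shared no slide with sham. Slide 1 held the sham and 5-min arrays and replicates 1 and 2 of 3 h, and slide 2 held replicate 3 of 3 h and the 24-h arrays. Negative control spots had median intensities of 25 to 27 on slide 1 and 83.5 to 101 on slide 2. At 24 h the median raw intensity of the 112 circRNAs was 235 to 372, against 785 to 1111 in sham, and no spot was saturated. It was 271, 784 and 573 on the 5-min arrays, so that a low raw median before scaling was not confined to 24 h. Over all circRNA probes, the median raw intensity was 50 to 69 at 5 min and 83 to 113 in sham. Probes well above background made up 70.89% to 77.09% at 5 min and 84.6% to 85.45% in sham. Some arrays of a group were not spread like the others. Sham replicate 2 lay between replicates 1 and 3 for 85.4% of the detected circRNAs and for 101 of the 112, and replicate 3 of 5 min lay between the other 5-min arrays for 79.9% and for 99. A blend of 0.3 of sham replicate 1 and 0.7 of sham replicate 3, in linear intensity, differed from sham replicate 2 by a median of 0.057 log2 units, while replicates 1 and 3 differed by 0.572. For replicate 3 of 5 min, a blend of 0.35 and 0.65 left 0.0764, against 0.54 between replicates 1 and 2. Whether these arrays shared RNA was not tested. Standard deviations of these 2 groups, and tests that use them, may be too small.

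The 112 circRNAs moved together at 24 h, by the rule, and were lower on 1 of the 3-h arrays than on the other two. Their median log2 intensity was 9.96, 9.78 and 9.62 on the sham arrays (replicates 1 to 3), 9.55, 10.44 and 10.20 on those of 5 min, 9.46, 9.54 and 8.57 on those of 3 h and 7.43, 7.44 and 7.68 on those of 24 h. The 24-h arrays were thus the lowest, and replicate 3 of 3 h lay between them and the rest. The median difference of the 24-h mean from sham was -2.27, from -3.68 up to the limit set by the rule, and 10 circRNAs fell by 3 units or more.

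**Figure D1:**
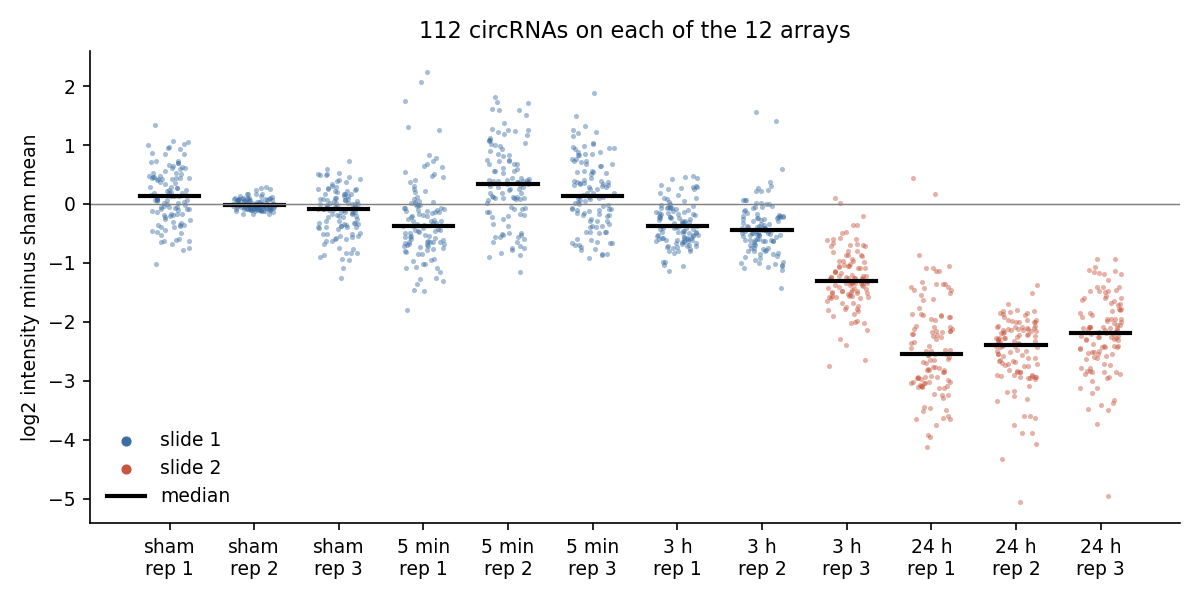
Log2 intensity of the 112 circRNAs on each of the 12 arrays, given as the difference from each circRNA's sham mean (y axis, log2 units). Each point is a circRNA, black lines are medians and colours mark the slide. The 24-h medians lie at -2.54, -2.39 and -2.18, and replicate 3 of 3 h, on slide 2, lies at -1.30, below the other 3-h arrays at -0.38 and -0.45.

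In limma with Benjamini-Hochberg adjustment over 8844 circRNAs, 111 of the 112 were called lower than sham at 24 h, where 17.6% of all were. Since the rule used this contrast, nothing is read from that count. The same holds for the 24-h arrays lying below all sham arrays, as in 110 of 112 (24.1% of all detected). The exceptions were the unnamed probe ASCRP4012580 and the circRNA of Ephb2, an ephrin receptor, where replicate 1 of 24 h stayed at 8.65 and 8.64 and the other 2 arrays were between 4.33 and 5.33. In 87 of 112 (7.64% of all detected) the 24-h arrays lay below each of the 9 other arrays. None was called lower at 3 h (0.905% of all) or at 5 min (4.60%), again by the rule. Against 5 min, 112 were called lower at 24 h (18.2% of all), and against 3 h, 62 were (2.36%). The rule, which set a low 24-h mean and held the means of 3 h and 5 min up, largely fixes both contrasts, and nothing is read from them. The count against 3 h was also unstable. Leaving out replicate 1 of 3 h or replicate 2 of 24 h left 1, leaving out replicate 2 of 3 h left 12, and leaving out sham replicate 2 or replicate 3 of 5 min left 40 and 39, while 83 were called when replicate 3 of 3 h was dropped. A fixed slide term left none, and a random slide block left 33.

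The deepest falls were in circRNAs of hosts with unlike functions. mmu_circRNA_27348 of Cacna1d, which encodes the pore of an L-type calcium channel (exonic, mm10 chromosome 14, 30045214 to 30047371, minus strand), had log2 intensities of 10.59, 10.70 and 10.84 on the sham arrays, 10.75, 11.52 and 11.24 on those of 5 min, 10.32, 9.66 and 9.49 on those of 3 h and 9.66, 5.66 and 5.76 on those of 24 h. Its mean difference of -3.68 from sham therefore rested on replicates 2 and 3 of 24 h, since replicate 1 lay within the range of the 3-h arrays. mmu_circRNA_24446 of Tnrc6c, a scaffold protein of miRNA-guided silencing (exonic, chromosome 11, 117700724 to 117723550, plus strand), read 12.66, 13.10 and 13.27 on the sham arrays, 12.04, 12.88 and 12.62 on those of 5 min, 13.31, 12.52 and 12.35 on those of 3 h and 9.06, 9.26 and 9.70 on those of 24 h. Here the 24-h arrays were close together and far below all others, and their mean differed from sham by -3.67.

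mmu_circRNA_36263 lies in Sh3glb1, whose product bends membranes in autophagy (exonic, chromosome 3, 144705512 to 144709361, minus strand). It read 11.49, 11.29 and 11.14 on the sham arrays, 11.34, 11.05 and 11.20 on those of 5 min, 11.41, 11.23 and 9.73 on those of 3 h and 8.36, 7.42 and 7.83 on those of 24 h. The 3-h array of slide 2 differed from the mean of the other 3-h arrays by -1.59. mmu_circRNA_016017 spans 60 bases of Rpl4, a protein of the large ribosomal subunit (sense overlapping, chromosome 9, 64178285 to 64178345, plus strand), and read 12.63, 11.93 and 11.41 on the sham arrays, 11.88, 12.17 and 12.06 on those of 5 min, 12.08, 11.19 and 11.49 on those of 3 h and 8.54, 8.36 and 8.88 on those of 24 h. In this case the slides did not separate the 3-h arrays, and the difference at 24 h was -3.40.

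mmu_circRNA_24038 of Rad51c, a recombination protein (exonic, chromosome 11, 87388247 to 87397757, minus strand), read 8.00, 7.99 and 7.80 on the sham arrays, 7.77, 7.88 and 7.76 on those of 5 min, 7.77, 7.73 and 5.64 on those of 3 h and 4.29, 5.02 and 4.94 on those of 24 h. Its 8 arrays of slide 1 were nearly equal, and the 3-h array of slide 2 was nearer to the 24-h arrays than to them. Its difference from sham at 24 h was -3.18, and it shrank to -2.02 with no background correction, -1.93 with a normexp offset of 50 and -1.08 with slide as a fixed term.

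The next 6 differed from sham by -3.14 to -2.95. The circRNA of Msto1, a protein of mitochondrial distribution, went from 9.89, 9.97 and 9.95 in sham to 8.32, 5.62 and 6.44 at 24 h, and that of Unc80, a subunit of the sodium leak channel, from 9.58, 10.17 and 10.76 to 8.77, 6.10 and 6.44. In both, as in Cacna1d, replicate 1 of 24 h was more than 1 unit above the other 24-h arrays. The circRNA of Nsd3, a histone methyltransferase, went from 9.33, 9.24 and 9.23 to 6.03, 5.68 and 6.84. That of Eif3a, a subunit of a translation initiation factor, went from 12.35, 11.82 and 11.53 to 8.25, 9.04 and 9.35. The circRNA of Dcaf6, a substrate receptor of ubiquitin ligases, went from 11.63, 11.98 and 12.05 to 8.38, 8.94 and 9.38, and that of Cep128, a centriole protein, from 9.99, 10.26 and 10.34 to 6.96, 7.02 and 7.77. The sham and 24-h arrays did not overlap in any of these 6, as in 110 of the 112 (24.1% of all detected). The rule largely fixes this.

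**Figure D2:**
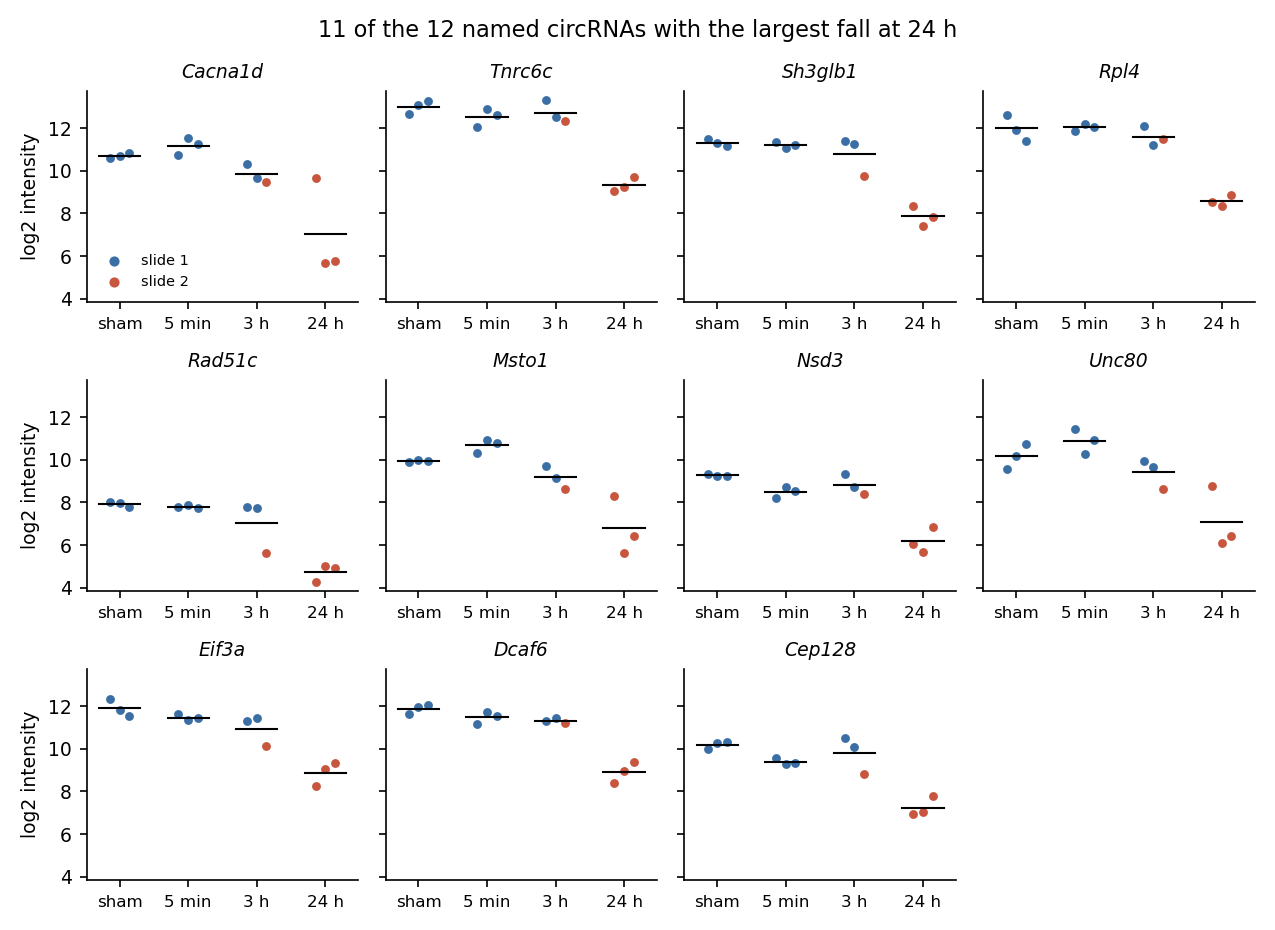
Log2 intensity (y axis) of 11 of the 12 named circRNAs with the largest fall at 24 h, by group (x axis) and titled by host gene. Points are single arrays coloured by slide and black lines are group means of 3 arrays. For Cacna1d, Msto1 and Unc80, replicate 1 of 24 h lies above the other 24-h arrays, at 9.66, 8.32 and 8.77.

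Agreement between the 24-h arrays differed widely among the 112. The 24-h values of 1 circRNA spanned at most 0.5 units in 24 cases, at least 1 unit in 56 and at least 2 units in 12, a span also found in 10.1% of all detected circRNAs. Replicate 1 was at least 1 unit above both other arrays in 17 and at least 1 unit below both in 15. The tightest were the circRNAs of Degs1, a ceramide-forming desaturase (9.34, 9.20 and 9.24), Canx, the chaperone calnexin (9.42, 9.27 and 9.34), Sf3b1, a core splicing factor (6.99, 7.13 and 7.14), and mmu_circRNA_19044 of Kansl1, a histone acetylation scaffold (9.65, 9.52 and 9.72). Sham means were lowest for Mto1 (7.20), Dtnbp1 (7.24) and Iws1 (7.32), and high for Cse1l (13.19) and Ptbp3 (14.62). The circRNA of Ptbp3, a splicing repressor, was kept only through its 3-h array of slide 2, which read 14.73 beside 13.65 and 13.19 and was marked as an outlier spot by the scanner software. With that spot set to missing, 111 circRNAs remained.

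The 3-h means were mostly below sham as well, although none was called lower. The difference was negative in 110 of 112, with a median of -0.76 (-0.12 in all detected circRNAs) and the exceptions of Degs1 (0.08) and Cd36 (0.00). The sham arrays are shared with the 24-h difference that chose these circRNAs. Which of them count as falling only at 24 h rests on the threshold of 1 unit. At that threshold, the circRNAs of Zcwpw1, Sec11a and Rbm4 (mmu_circRNA_001009) lay just inside with -0.9968, -0.9923 and -0.9886 at 3 h, and those of Pds5a, Minar1 and Htt just outside with -1.0025, -1.0133 and -1.0164. At 24 h the circRNAs of Cipc, Zer1 and Rbm4 (mmu_circRNA_013935) were just inside with -2.0002, -2.0022 and -2.0063, and the probes ASCRP4002783, ASCRP4004671 and ASCRP4002031 just outside with -1.9965, -1.9900 and -1.9884. At 5 min Cdk5rap2, Rasa2 and Tmpo were just inside with -0.97, -0.96 and -0.80, and St7, Plcb4 and Mctp1 outside with -1.06, -1.13 and -1.26.

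Most of the difference at 3 h was on 1 array. Replicates 1 and 2 of 3 h, on slide 1, were below sham by a median of 0.44, and 1 of the 112 was 1 unit or more below. Replicate 3, on slide 2, was below sham by a median of 1.30, and 83 were 1 unit or more below. All detected circRNAs had medians of -0.07 and -0.21 on the same arrays. The rule kept the mean of the 3 arrays above -1, which leaves replicates 1 and 2 little room below -1. Nothing is therefore read from the count of 1 beside 83. Replicate 3 lay below both other 3-h arrays in 98 of 112, against 53.3% of all detected circRNAs. It lay below all 8 arrays of slide 1 in 89, against 27.0% of all detected. The rule used the 3-h mean but not the difference between its arrays. That difference had a median of -0.82 in the 112, -0.16 in all detected circRNAs, -0.67 in the 169 circRNAs that fell by 2 units at 24 h and also earlier, and -0.03 in 65 that rose by 2 units only at 24 h. In limma with group and slide as terms and Benjamini-Hochberg adjustment, no slide difference was called in 111 of the 112 that could be tested, where 0.0226% of all 8843 were called lower. At an unadjusted p below 0.05, 35 of the 111 were lower on slide 2 (31.5%), and 916 of all (10.4%). The circRNA of Ptbp3 could not be tested, since its array of slide 2 at 3 h was set to missing. A single 3-h array stands for slide 2 here, and the slide and that mouse cannot be told apart.

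**Figure D3:**
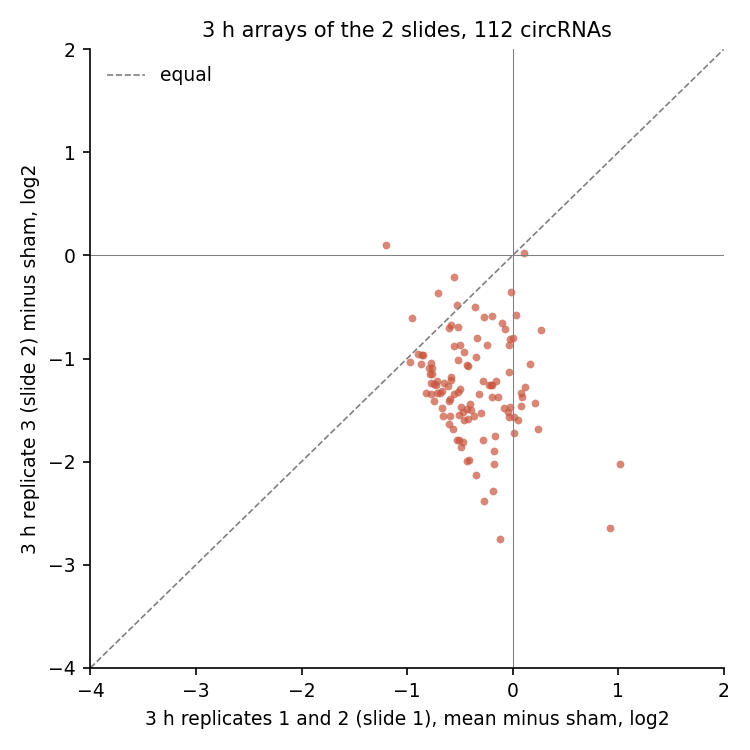
Mean of the 3-h replicates 1 and 2 on slide 1 (x axis) against 3-h replicate 3 on slide 2 (y axis), each as the difference from the sham mean in log2 units, for the 112 circRNAs. The dashed line marks equal values, and most points lie below it (medians of -0.44 and -1.30). The rule keeps the mean of the 3 arrays above -1, which sets the lower left edge of the cloud.

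The largest differences between the 3-h arrays were wider than the fall at 24 h itself. The circRNA of Nbea, a vesicle-trafficking protein of neurons, had 10.08 and 11.05 on slide 1 and 7.00 on slide 2, that of Cd36, a fatty acid receptor of platelets, monocytes and endothelium, 9.00 and 10.10 against 6.51, and that of Zcwpw1, a histone reader, 8.75 and 8.53 against 6.01. The differences were -3.57, -3.04 and -2.63 (limma, Benjamini-Hochberg adjusted p = 0.128, 0.154 and 0.24). With the slide difference taken out, these 3 no longer lay below sham at 24 h, with estimates of 0.89, 0.58 and 0.08. They were picked for their low slide differences, which rest on 1 array each. Taking these out largely fixes such a change, and nothing is read from it. At the other end, Edem2, Ube2o and Canx were 0.35 higher on slide 2 at 3 h.

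Within slide 2, the 24-h mean was below replicate 3 of 3 h in 109 of 112, with a median difference of -1.101 (0.03 in all detected circRNAs), and by 1 unit or more in 64. The rule, with its low 24-h mean and its limit on the 3-h mean, largely fixes this direction. With the slide difference taken out, the 24-h difference from sham had a median of -1.51, with 87 at -1 or below and 23 at -2 or below. In limma with slide as a fixed term and Benjamini-Hochberg adjustment, 15 of 111 were called lower at 24 h, where 0.780% of all 8843 were. The rule used the 24-h difference, so that nothing is read from this against the share of all. Among them were the circRNAs of Tnrc6c, Rpl4, Nsd3, Dcaf6, Tlk1, Kansl1 (both), Emilin2, Zer1 (both), Ube2o, Canx, Stx8 and Cstf3 (mmu_circRNA_19255). The estimates included -3.26 for Rpl4, -3.11 for Tnrc6c, -2.82 for Dcaf6 and -2.46 for Nsd3.

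At 5 min the 112 went both ways. The 5-min arrays had the lowest median raw intensities over all circRNA probes. The 5-min mean was above sham in 60, and the median difference was 0.04 (0.11 in all detected circRNAs). In 11, all 5-min arrays lay above all sham arrays (24.5% of all detected). The 5-min mean was at least 1 unit above sham in 5 of the 112, and in 641 of all 8844 detected circRNAs. The circRNA of Adipor2, an adiponectin receptor, had 11.50, 11.03 and 10.72 in sham, 12.83, 12.90 and 12.97 at 5 min and 8.02, 8.58 and 8.84 at 24 h. That of Edem2, which marks misfolded glycoproteins for degradation, had 12.99, 12.69 and 12.47, then 14.78, 13.47 and 14.22, then 11.35, 10.07 and 10.58. These 2 were called higher than sham at 5 min in limma with Benjamini-Hochberg adjustment (2.95% of all). Neither call remained without sham replicate 2, without sham replicate 3, or without replicate 1 or replicate 3 of 5 min. Fam186b, Tub and Cd36 were higher by 1.24, 1.24 and 1.17 at 5 min, and Fam186b had a spread 5-min group of 12.03, 10.13 and 10.96.

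By type, 84 of the 111 named circRNAs were exonic (75.7%), 18 sense overlapping (16.2%) and 9 intronic (8.11%), and none was antisense or intergenic. Antisense and intergenic ones each made up only 2.21% of all 903 named circRNAs. The 203 other named circRNAs that were lower by 2 units at 24 h were 78.8% exonic, 15.8% sense overlapping and 3.94% intronic. Of the 203, 3 were intergenic (1.48%) and none was antisense. Unlike the 111, the 203 did not have to be well above background on all arrays. Exonic ones of the 111 spanned 172 to 223203 bases of the genome, with a median of 9454.5, and intronic ones 427 to 14044 with a median of 2433. The longest exonic one was that of Nbea and the shortest exonic one that of Celf4, an RNA-binding splicing regulator. They lay on 19 chromosomes, with at most 12 on 1 chromosome, and 110 of 111 lay inside their host gene in RefSeq.

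The 111 came from 101 host genes, of which 9 gave 2 or 3 each. Some of these are nearly the same junction read by 2 probes, and are not separate observations. The 2 circRNAs of Kansl1 and those of Cstf3, an mRNA cleavage factor, differ by 1 base at each end, those of Zer1, a substrate adaptor of ubiquitin ligases, by 2, and those of H1f2, a linker histone, by 18. Their median differences from sham at 24 h were -2.60 for Kansl1, -2.22 for Cstf3, -2.23 for Zer1 and -2.28 for H1f2. Other hosts gave distinct loops. In Cep128, 2 overlapping exonic loops differed from sham by -2.95 and -2.45. The second went from 7.78, 7.62 and 7.55 to 4.61, 5.44 and 5.57, and its difference was -1.51 with a normexp offset of 50. With slide as a fixed term the differences were -1.49 and -0.81. The 3 circRNAs of Rbm4, a splicing regulator, share their start and differed from sham by -2.13 to -2.01, and the medians were -2.14 in Ipo11 and -2.18 in Snx5.

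Further circRNAs of the same hosts lay on both sides of sham, in shares near those of all named circRNAs. In the list of the study, 11 of the 101 host genes had 13 further circRNAs, of which 4 were lower than sham at 24 h by 2 units or more and 6 higher by 2 or more. Of all 903 named circRNAs, 34.8% were lower and 52.7% higher by as much. The list holds only circRNAs that the study called changed at some time point, so that unchanged ones of these hosts are not named here. A second exonic loop of Tnrc6c, mmu_circRNA_24450 (chromosome 11, 117735971 to 117740009), lies downstream of the first. It read 5.19, 5.51 and 5.71 on the sham arrays, 6.36, 5.15 and 5.32 on those of 5 min, 6.86, 7.35 and 7.50 on those of 3 h and 10.38, 10.09 and 8.69 on those of 24 h. Its rise from sham to 24 h was 4.25 (SE 0.435), called in limma with a Benjamini-Hochberg adjusted p of 5.23e-05. In this host 1 loop fell and another rose, with no overlap of sham and 24-h arrays in either. The study chose the listed circRNAs on these samples, and the 24-h arrays share slide 2, so that slide and time cannot be told apart in these rises. Further rises were in Ubxn1, a ubiquitin-binding cofactor (3.18, limma, Benjamini-Hochberg adjusted p = 0.00032), Mms22l, a replication repair protein (2.59, 0.000347), Syf2, a splicing factor (2.41, 0.000617, with the same listed start as the loop that fell), and Tlk1, a chromatin assembly kinase (2.14, 0.00954). In Kansl1 the further circRNA, which rose by 2.56 (limma, Benjamini-Hochberg adjusted p = 0.000547), is antisense to the gene. Circles of the same host that fell as well were found in Tlk1 (-2.22), Arhgap10 (-2.27), Cul3 (-2.16) and Nfx1 (-2.05). These had also fallen below -1 at 3 h or 5 min. The rule fixes that earlier fall, and nothing is read from it. Detected circRNAs lower by 2 units at 24 h without an earlier fall were themselves selected.

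**Figure D4:**
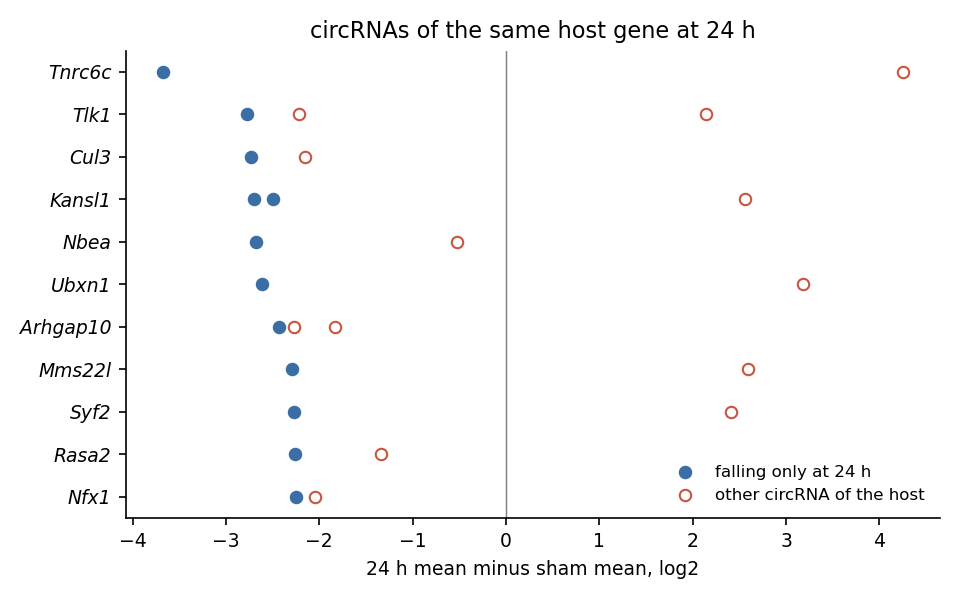
Difference of the 24-h mean from the sham mean (x axis, log2 units) for the 11 host genes (y axis) that gave a circRNA falling only at 24 h and at least 1 further named circRNA. Filled points are the circRNAs falling only at 24 h and open points the further ones. In Tnrc6c, Tlk1, Kansl1, Ubxn1, Mms22l and Syf2 an open point lies to the right of 2, and in Tnrc6c it lies at 4.25.

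The promoter of Syf2, whose falling and rising loops share a start, is shown from RefSeq (GRCm38.p6, 300 bases around the annotated gene start, chr4:134930730-134931029, plus strand). Capitals mark matches, on either strand, to the GC box GGGCGG or the ETS motif CCGGAAG.
Syf2: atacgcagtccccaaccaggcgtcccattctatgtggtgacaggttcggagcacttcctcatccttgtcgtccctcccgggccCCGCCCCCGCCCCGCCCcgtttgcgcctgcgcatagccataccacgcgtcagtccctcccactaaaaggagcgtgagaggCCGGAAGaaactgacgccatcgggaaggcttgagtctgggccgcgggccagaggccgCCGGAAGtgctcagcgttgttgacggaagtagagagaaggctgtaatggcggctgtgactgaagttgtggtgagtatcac
It held both motifs. Over the 82 host promoters found in the table (the first listed start of each gene), the GC box occurred in 63.4% and the ETS motif in 19.5%. In promoters of the other named host genes the shares were 63.3% and 14.3%, and in all 27025 genes 35.9% and 9.12%. The letters CCAAT occurred in 30.5% of the 82, 34.0% of the other named hosts and 37.9% of all. For CACGTG the shares were 13.4%, 8.99% and 7.24%, and for AGATAA, the GATA motif, 1.22%, 6.31% and 11.4%. A match is a description of these letters and not a bound site.

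Of the 111, 72 had a host in none of the 5 lists of host genes and 39 had a host in at least 1. The lists were chosen with earlier results of these data known. No enrichment was tested, and nothing is read from the shares of a list. The 903 named circRNAs did not have to be well above background on all arrays. For comparison, 12.3% of the 903 named circRNAs were among the 111, 34.8% were lower at 24 h by 2 units or more, 52.7% were higher by as much, and their median difference was 2.06. From splicing and hnRNP proteins, 9 of 20 named circRNAs were among the 111 (18 lower, 2 higher in all). Their median difference was -2.16, and the highest sham signals were those of Ptbp3 (14.62) and Rbm4 (12.10, 11.91 and 11.55). Others were from Celf4, Hnrnpm, Luc7l2, Sf3b1 and Syf2, and of these Luc7l2, a factor of splice site choice, went from 10.38, 9.71 and 9.29 to 7.23, 6.89 and 7.01.

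From mRNA decay and miRNA silencing, 5 of 12 named circRNAs were among the 111, with Pum2, Tnrc6a and Tnrc6c among their hosts (7 lower and 3 higher in all). Tnrc6a, a relative of Tnrc6c, went from 10.91, 10.72 and 10.66 in sham to 7.67, 7.82 and 8.98 at 24 h. Pum2, an RNA-binding repressor of translation, went from 9.91, 10.13 and 10.26 to 8.64, 6.76 and 7.21. In both, the sham and 24-h arrays did not overlap, which the rule largely fixes. From chromatin regulators, 8 of 35 were among the 111 (21 lower, 8 higher in all), from H1f2 and Kansl1 (both of each), Kat7, Nsd3, Supt16 and Tlk1. Their median difference was -2.43, and Tlk1 went from 10.40, 10.76 and 10.94 to 7.90, 7.76 and 8.11.

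From ubiquitin conjugation and removal, 10 of 26 were among the 111 (19 lower, 2 higher in all), with a median difference of -2.54. The highest sham signals were those of Ube2o, a hybrid conjugating enzyme and ligase (12.38), Dcaf6 (11.89), Wdr26, a ligase subunit (11.45), and Trim37, a ligase (10.88). Cul3, the scaffold of a ligase family, went from 10.66, 10.14 and 9.83 to 6.58, 7.64 and 8.19. From membrane trafficking, 7 of 33 were among the 111 (21 lower, 5 higher in all), with a median difference of -2.26. Their highest sham signals were those of Exoc4, of the exocyst (11.85), Snx5, a sorting nexin (10.15), Stx2, a syntaxin (9.73), and Nbea (9.64).

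Names exist only for the listed circRNAs, so few markers of the blood cell types could be looked up. The marker lists were chosen with earlier results of these data known, and nothing is read from their counts. From the erythroid list, the circRNA of Dmtn, a protein of the red cell membrane skeleton, read 8.49, 8.31 and 8.27 on the sham arrays, 8.87, 8.75 and 8.75 on those of 5 min, 7.59, 7.75 and 7.02 on those of 3 h and 6.14, 6.39 and 6.44 on those of 24 h. It was higher in all 5-min arrays than in all sham arrays. Of the neuron list, 3 of 8 named circRNAs were among the 111, from Unc80, Celf4 and Chl1, a neural adhesion molecule that went from 10.19, 9.64 and 9.16 to 7.49, 7.35 and 7.16. Of the 8, 6 were lower by 2 units at 24 h and 2 higher. No circRNA of the platelet (2 named), B cell (2 named) or monocyte lists (4 named) was among them. Both B cell circRNAs were nonetheless lower by 2 units or more at 24 h (median -2.20), the platelet ones had a median of -1.29, and of the monocyte ones 2 were higher by 2 units or more and none lower. The T cell, neutrophil, glia and endothelium lists had no named circRNA. The part of cell composition in the falls was not tested.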

How the data were processed

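The authors deposited, per array, scanner output (Agilent Feature Extraction 11.0.1.1, per the labels) with spot intensities, and a series-wide table of normalized log2 values, for which the methods name limma's background correction and give no setting. Spot medians were corrected with local background medians by normexp (offset 0), quantile normalized over 15712 spots and brought to log2 (limma 3.58.1, R 4.3.3). Membership was read from group means with outlier spots kept; in the tests such spots were missing. One limma model of 4 groups with a mean-variance trend gave the moderated two-sided tests, with Benjamini-Hochberg adjustment over 8844 circRNA probes. Arrays with the same scan date in the file headers were taken to share a slide, and slide was added as a term.

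Each of 903 listed circRNAs was tied to 1 probe on its mean and its log2 difference (largest difference 0.000499, next nearest at least 0.008). mm10 positions are as listed. Host symbols were resolved by place in RefSeq.

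Members and gene lists were chosen with earlier results of these data known. Named circRNAs are the 12 deepest falls, hosts with several, extremes of level, slide difference and 24-h spread, threshold neighbours, and list or marker members; some are not reported here. Alternatives covered background, scaling, filters, model, slide and left-out arrays. The procedure was tested on simulated data. Array number limits precision.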

Additional observations from a re-analysis of the deposited data

Results flagged for a closer look

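In 11 of the 112 circRNAs all 5-min arrays lay above all sham arrays while all 24-h arrays lay below them. The difference between the time points was called in limma for all 112, but the rule that chose them used both. Among them, the 5-min mean exceeded sham by 1.82 log2 units for the circRNA of Adipor2, 1.44 for Edem2, 1.24 for Tub, 0.96 for Zfpm1, 0.85 for Prkag2, 0.76 for Spc24, 0.75 for Msto1, 0.68 for Pum2, 0.46 for Zfand4 and 0.43 for Dmtn. Of these hosts, Dmtn is on the erythroid list. Zfpm1, known as a cofactor of GATA factors in red cells and megakaryocytes, is on none of the lists. It was singled out with its values known, and nothing is read from it. A red cell pattern was not tested. Over all detected circRNAs, 24.5% had all 5-min arrays above all sham arrays, against 9.82% of the 112. All 24-h arrays lay below all sham arrays in 24.1% of all detected. The share of all detected with both was not counted, and nothing is read from the 11.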

How the results depend on the processing

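The count of 112 circRNAs depended on the scaling: it was 57 with no background correction (54 shared with the 112), 53 with normexp offset 50 (50 shared), 71 with cyclic loess (58 shared) and 411 with a fall of 1 unit at 24 h and limits of 0.5 earlier (21 shared). With single arrays left out it was lowest at 72 when replicate 1 of 3 h was dropped and highest at 173 when replicate 3 of 24 h was, and 157 (111 of them shared) when replicate 3 of 3 h was. The count called lower at 24 h ran from 104 to 111 without single arrays and fell to 15 with slide as a fixed term. It was 102 with slide as a random block. The replicate numbers did not pair the arrays: same-numbered arrays correlated between -0.455 and 0.487 in their deviations from the group means, other-numbered ones between -0.504 and 0.527. With the replicate block, 112 were called at 24 h. Without sham replicate 2 and replicate 3 of 5 min together (chosen after seeing the data), 119 circRNAs met the rule, 103 of the 112 were called at 24 h, 5 were called lower than at 3 h and none higher at 5 min. Array weights raised the calls against 3 h to 112 and those at 5 min to 53. The median slide difference ran from -0.94 to -0.82 without single arrays and was -1.01 with the replicate block; without replicate 3 of 3 h it cannot be estimated. Of 18 named circRNAs followed over the alternatives, all kept the direction of their fall, and 11 lost the call with slide as a fixed term. These 18 were chosen for the depth of their fall or that of their host, which makes a kept direction likely. Outside the 18, the estimates for Nbea, Cd36 and Zcwpw1 lay above sham with that term, as given above. A signal near the negative controls of slide 2 limits precision at 24 h.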
